A study of Mus musculus with 6 samples.

Results

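The ZBTB genes encode transcription factors that pair a BTB domain with zinc fingers, and they were followed here in γδ T cells of the mouse spleen that did or did not express the T-box factor Eomes. The set held every gene whose name on the array begins with Zbtb, together with Bcl6 and Patz1, which carry the same domains under other names. Zbtb16 was left out. This gave 42 genes of the 30199 gene names on the array, read by 69 probes. The rule used names and no measured values, but it was set with earlier results of these data known. Zbtb8os entered by the letters of its name only, since it is the gene on the strand opposite its namesake and not a zinc finger gene, so 41 genes of the family remain. Each gene was represented by its brightest probe on average. There were 24 genes with 1 probe and 18 with more, up to 4.

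Eomes-positive cells (3 arrays) and Eomes-negative cells (3 arrays) came from the spleens of Eomes-IRES-GFP reporter mice, allele Eomestm1.1Twa on a C57BL6 background. Green fluorescent protein (GFP) is translated there from the Eomes transcript, so both groups carry the reporter and differ in whether they were sorted as GFP+ or GFP-. There were 3 independent sorts, each from a pool of 4 to 6 mice, and each gave 1 sample of both groups. The mice were 9, 9.5 and 7.5 weeks old in sorts 1, 2 and 3, and 9, 9 and 4 ng of RNA were labelled. Cells with B220, CD4 or CD8β were depleted first, and TCRβ- TCRγδ+ CD3+ cells were then gated.

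In the BTB zinc finger family the zinc fingers bind DNA, while the BTB domain forms dimers and recruits corepressor complexes or the ubiquitin ligase scaffold Cul3. Several members set lymphocyte fates. Bcl6 drives follicular helper T cells and germinal centre B cells and is opposed by Blimp-1, ThPOK (Zbtb7b) commits thymocytes to the CD4 lineage, and PLZF (Zbtb16, not in this set) directs innate-like T cells.

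Promoter sequences are shown for 3 genes because these were the members that passed the test when the sort was taken into account, as given below. They were taken from RefSeq (GRCm38.p6), which held promoters for 38 of the 42 genes, and run 5′ to 3′ on the strand of the gene over the 250 bases before an annotated start. Capitals in the Bcl6 windows mark TTCNNNGAA, the palindrome that STAT factors bind and that the BCL6 element resembles, and the Zbtb20 and Patz1 windows printed here hold none of the motifs searched. The Bcl6 windows are chr16:23988853-23989102 and chr16:23981284-23981533, both on the minus strand. The Zbtb20 window is chr16:43247034-43247283 and the Patz1 window is chr11:3288881-3289130, both on the plus strand.
Bcl6, first window: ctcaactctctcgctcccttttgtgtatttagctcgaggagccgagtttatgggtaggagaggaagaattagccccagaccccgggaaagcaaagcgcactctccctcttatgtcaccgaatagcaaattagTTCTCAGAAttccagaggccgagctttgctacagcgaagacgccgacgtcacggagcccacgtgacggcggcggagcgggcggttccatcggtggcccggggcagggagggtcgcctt
Bcl6, second window: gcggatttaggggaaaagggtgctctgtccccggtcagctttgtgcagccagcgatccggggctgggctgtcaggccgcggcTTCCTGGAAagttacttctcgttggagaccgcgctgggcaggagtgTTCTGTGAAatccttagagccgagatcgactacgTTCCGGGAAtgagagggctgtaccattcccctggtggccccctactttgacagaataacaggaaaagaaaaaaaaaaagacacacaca
Zbtb20: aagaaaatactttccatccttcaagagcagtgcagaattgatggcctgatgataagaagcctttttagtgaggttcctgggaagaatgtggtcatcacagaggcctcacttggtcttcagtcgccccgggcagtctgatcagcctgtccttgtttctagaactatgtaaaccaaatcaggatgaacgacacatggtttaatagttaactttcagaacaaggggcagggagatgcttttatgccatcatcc
Patz1, first of 2 windows: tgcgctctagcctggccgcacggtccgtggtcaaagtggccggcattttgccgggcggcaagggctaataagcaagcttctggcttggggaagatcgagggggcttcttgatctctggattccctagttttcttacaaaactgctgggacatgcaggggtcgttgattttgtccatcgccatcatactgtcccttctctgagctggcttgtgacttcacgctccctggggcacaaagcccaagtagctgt

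TTCNNNGAA, which reads the same on both strands, was found in 7.02% of the 32851 mouse promoters of this length. Among the 53 promoters of the ZBTB genes only the 2 Bcl6 windows held it. The second Bcl6 window held 3 matches, TTCCTGGAA, TTCTGTGAA and TTCCGGGAA, and 9 promoters of all 32851 (0.0274%) held 3 or more. The first of these also matches TTCCTNGAA, the BCL6-type element, which overlaps the first motif and was found in 1.31% of promoters on either strand. The T-box half-site GGTGTGA, searched on both strands, was found in 3.33% of promoters and in 1 of the 53, of Zbtb11. The Kaiso site TCCTGCNA, on either strand, was found in 4.03% of promoters and in 5 of the 53. These belong to Patz1 (in its other window, as TTGCAGGA, 164 to 157 bases before the start), Zbtb18 and Zbtb37. A match is a string of letters and was not tested as a binding site.

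Levels are log2 intensities from which the array's own 75th percentile was subtracted, so a level of 0 lies at that percentile. A level belongs to its probe and is compared between arrays, not between genes. A difference is the mean of the Eomes-positive arrays minus the mean of the Eomes-negative arrays, so a value of 1 is a doubling. In these sorted populations fewer cells with a transcript and less transcript per cell cannot be told apart. Eomes itself checked the sort. Its level was 0.72, 0.88 and -1.14 in Eomes-negative cells and 5.31, 4.96 and 4.48 in Eomes-positive cells of sorts 1, 2 and 3, a difference of 4.76 ± 0.588 (SE), with an adjusted p of 0.0178 in limma. The 75th percentile was 1581 to 1684 intensity units in sorts 1 and 2 but 534 and 549 in sort 3, which was labelled from less RNA. Slide 1 held both arrays of sort 1 and the Eomes-negative array of sort 2. Slide 2 held the Eomes-positive array of sort 2, and slide 3 both arrays of sort 3. Every difference within sort 2 is therefore also one between slides, and sort 3 cannot be told apart from its slide. Between 47.7% and 56.6% of probes were measured per array, meaning that at least 50% of a probe's spots were well above background. The pan-T-cell markers Cd3d, Cd3e and Cd3g were measured on all 6 arrays.

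Of the 42 ZBTB genes, 38 were measured on at least 3 of the 6 arrays and were tested with all 16361 such genes, 34 of them on every array. The share tested was 90.5%, against 54.2% of all gene names. Zbtb17, Zbtb26 and Zbtb7c were measured on no array. Zbtb8b was measured on 2 Eomes-positive and no Eomes-negative arrays and was not tested. Between 35 and 38 of the genes were measured per array, so most of the family gave signal in both populations.

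Without regard to the sort, no ZBTB gene passed an adjusted p of 0.05 in either direction (limma, Benjamini-Hochberg over all genes tested), where 1.2% of all genes were called higher and 1.56% lower in Eomes-positive cells. At an unadjusted p under 0.05 there were 7 ZBTB genes (18.4%), against 12.2% of all genes. The samples of a sort deviated together, and with the sort as a block Bcl6 and Zbtb20 rose and Patz1 fell. Those 2 higher genes are 5.26% of the 38, beside 3.67% of all genes called higher with the block, and the 1 lower gene is 2.63%, beside 4.33% of all genes. The called shares therefore lay near the background, and in either direction the 3 genes are 7.89%, against 8% of all genes. All 3 calls were lost whenever any one sort was left out of the fit with the block. The calls over all genes dropped as well, from 601 higher and 708 lower. Without sort 1, 2 or 3 they were 43, 179 and 111 higher and 95, 274 and 180 lower.

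Bcl6, the repressor that drives the follicular helper and germinal centre programmes, was read by a probe at chr16:23965160-23965219 (mm9). In sorts 1, 2 and 3 its level was 2.09, 1.75 and 1.22 in Eomes-negative cells and 3.31, 2.97 and 2.68 in Eomes-positive cells. All 3 Eomes-positive arrays lay above all 3 Eomes-negative arrays, and both groups were lowest in sort 3. The difference was 1.30 ± 0.284 (SE), 2.46-fold, with an adjusted p of 0.0955 in limma. Within the sorts it was 1.23, 1.22 and 1.46, and taking the sort as a block gave a standard error of 0.102 and an adjusted p of 0.0112. With the slide as a block the difference was 1.42 and the adjusted p 0.0419, and within the slides that held both groups it was 1.39 and 1.46. Leaving out sort 1, 2 or 3 from the fit with the block gave differences of 1.34, 1.34 and 1.22 and adjusted p of 0.0822, 0.0566 and 0.0552.

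B cells also express Bcl6, so their markers are given beside it. Of 10 B cell markers 8 were tested, none passed without the block, and with it Cd79b, a chain of the B cell receptor, fell (-0.92). The inhibitory receptor Cd22 was higher in Eomes-positive cells in every sort (0.96, 0.64 and 0.50) and did not pass (adjusted p of 0.919 in limma, 0.0559 with the block), and the IgE receptor Fcer2a differed by 0.35. The median difference of the 8 was -0.88, -0.03 and 0.31 in sorts 1, 2 and 3. The mean level of the list was -3.06 to -1.64 on Eomes-positive and -2.65 to -1.51 on Eomes-negative arrays. The B lineage factor Pax5 was measured on 0 Eomes-positive and 2 Eomes-negative arrays, and Ebf1 on 1 array of either group. No B cell marker passed as higher in Eomes-positive cells. The part of B cells in the Bcl6 difference was not tested.

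Zbtb20, a repressor known from plasma cells, liver and hippocampus, was read by 1 probe at chr16:43619030-43619089 (mm9). Its level in sorts 1, 2 and 3 was -0.15, -0.26 and -0.79 in Eomes-negative cells and 1.05, 0.93 and -0.09 in Eomes-positive cells. The groups did not overlap, but the Eomes-positive array of sort 3 stood only just above the highest Eomes-negative one. The difference was 1.03 ± 0.364 (SE), 2.04-fold, with an adjusted p of 0.316 in limma. Within the sorts it was 1.20, 1.19 and 0.70, and taking the sort as a block gave a standard error of 0.144 and an adjusted p of 0.0327. Without sort 1, 2 or 3 the difference was 0.95, 0.95 and 1.20, and the adjusted p with the block 0.144, 0.140 and 0.0564. With the slide as a block instead of the sort, the difference was 1.02 and did not pass (adjusted p of 0.104).

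Patz1, a BTB factor that takes part in T cell development and CD8 gene regulation, was read at chr11:3194546-3194605 (mm9). Its level in sorts 1, 2 and 3 was -0.74, -0.76 and -0.67 in Eomes-negative cells and -1.22, -1.43 and -1.54 in Eomes-positive cells. Every Eomes-positive array lay below every Eomes-negative one, which spanned a narrow range. The difference was -0.68 ± 0.145 (SE), with an adjusted p of 0.0901 in limma. Within the sorts it was -0.48, -0.68 and -0.87, and blocking by sort gave an adjusted p of 0.0493, close to the threshold. The other Patz1 probe, at chr11:3208333-3208392 (mm9) and also measured on all arrays, gave a difference of only -0.02. With the mean of both probes the difference was -0.35 and the adjusted p with the block 0.212, so the call rests on 1 of the 2 probes. Without sort 1, 2 or 3 the difference was -0.77, -0.68 and -0.58, and the adjusted p with the block 0.126, 0.199 and 0.147. With the slide as a block instead of the sort, the difference was -0.64 and did not pass (adjusted p of 0.183).

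Zbtb7b encodes ThPOK, which represses the CD8 programme and is needed for some innate-like γδ T cells. Its level in sorts 1, 2 and 3 was 1.70, 1.88 and 2.57 in Eomes-negative cells and 1.29, 1.43 and 1.89 in Eomes-positive cells. The groups overlapped, because both were highest in sort 3, but within each sort the Eomes-positive array was the lower one. The difference was -0.51 ± 0.293 (SE), with an adjusted p of 0.647 in limma and 0.0676 with the sort as a block. Its other probes gave -0.60 and -1.06, the latter measured on 5 of the 6 arrays. With the mean of all 3 probes the difference was -0.72 and the adjusted p with the block 0.0489. This was 1 of the 4 among 12 alternatives with the block, chosen after seeing the data, in which ThPOK passed. The others used the brightest probe, with adjusted p of 0.0285 (normexp background correction), 0.0395 (genes measured on all 6 arrays) and 0.0093 (trend and robust moderation).

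Zbtb25, a zinc finger repressor of NFAT-driven transcription, had levels of 2.38, 2.30 and 2.26 in Eomes-negative cells and 2.04, 1.93 and 1.87 in Eomes-positive cells. The groups did not overlap, and the difference of -0.36 ± 0.130 (SE) did not pass (adjusted p of 0.318 in limma, 0.0908 with the block). Zbtb7a, which encodes LRF, a factor close to ThPOK, had levels of 2.16, 1.92 and 2.08 in Eomes-negative cells and 2.26, 2.25 and 2.42 in Eomes-positive cells. The groups did not overlap here either, and the difference of 0.26 ± 0.141 (SE) did not pass (adjusted p of 0.621, 0.211 with the block). Its interval with the block reached from -0.02 to 0.54.

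The Zbtb1 level was 0.40, -0.22 and -0.59 in Eomes-negative cells and 0.35, -0.15 and -0.37 in Eomes-positive cells. Zbtb1 is required for lymphocyte development, and its arrays varied more between sorts than between groups (difference 0.08, adjusted p of 0.990 in limma). The Zbtb24 level was 0.44, 0.11 and 0.25 in Eomes-negative cells and 0.33, 0.34 and 0.43 in Eomes-positive cells. Zbtb24, mutated in a human immunodeficiency with centromeric instability, differed by 0.10 (adjusted p of 0.952). The Zbtb18 level was -0.06, -0.59 and -0.66 in Eomes-negative cells and -0.31, -0.10 and -0.40 in Eomes-positive cells. Zbtb18, a transcriptional repressor, differed by 0.17 (adjusted p of 0.934). These 3 genes overlapped between groups, and their 95% intervals with the block were -0.20 to 0.36, -0.21 to 0.41 and -0.31 to 0.65.

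Zbtb32, a repressor of cytokine genes and of proliferation in activated lymphocytes, was near the limit of measurement. Its level was -4.37, -3.34 and -2.90 on the Eomes-negative arrays, all measured, and -5.71, -3.05 and -4.41 on the Eomes-positive arrays, of which 1 was measured. It was lower in Eomes-positive cells in sorts 1 and 3 and higher in sort 2, and the difference of -0.85 ± 0.742 (SE) did not pass (adjusted p of 0.844 in limma, 0.277 with the block). Without sort 2 the difference was -1.42 (adjusted p of 0.0492 with the block), but at most 1 Eomes-positive array was then well above background, so this is no measured fall. Zbtb46, which marks conventional dendritic cells, was measured on 2 Eomes-positive and 1 Eomes-negative arrays. Its level was -5.30, -4.42 and -5.55 in Eomes-negative and -4.40, -4.28 and -5.35 in Eomes-positive cells, a difference of 0.41 (adjusted p of 0.894). Of the 7 dendritic cell markers tested only Itgax, which NK cells also express, passed, with a difference of 3.65. The others differed by -0.40 (Cd74) to 0.12 (Ciita). The mean level of the list was -1.70 to 0.91 on Eomes-positive and -1.97 to 0.79 on Eomes-negative arrays. The part of dendritic cells in the Zbtb46 signal was not tested. Zbtb17, which encodes the Myc partner Miz-1, was not well above background on any array.

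**Figure D1:**
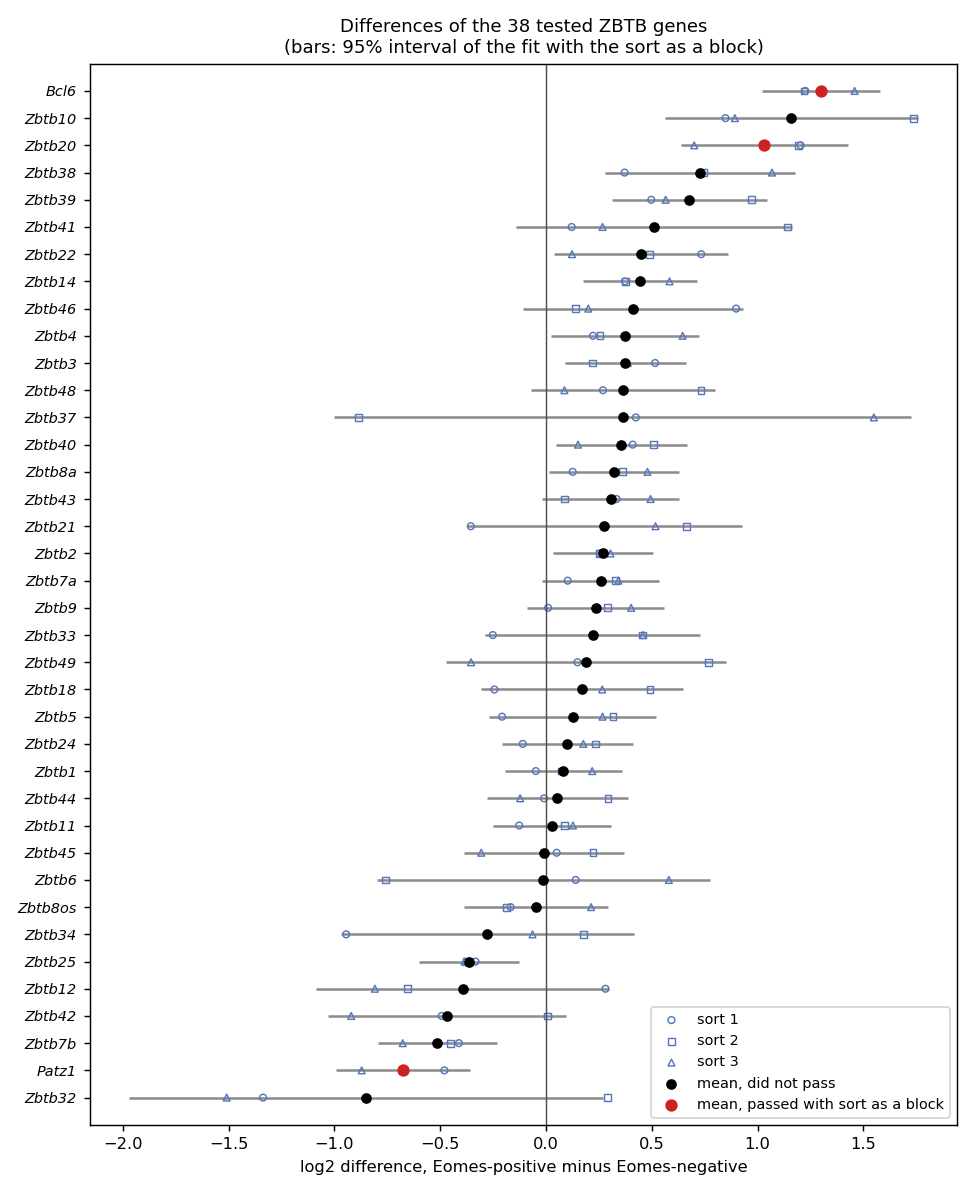
Difference between Eomes-positive and Eomes-negative cells (log2) for the 38 tested ZBTB genes, ordered by size. Filled points are means over the 3 sorts, open symbols are the sorts and bars are 95% intervals of the fit with the sort as a block. Red points passed an adjusted p of 0.05 in that fit, namely Bcl6, Zbtb20 and Patz1, and 28 of the 38 means lie above 0.

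Among the 3 methyl-CpG binding members of the Kaiso type none passed in either fit, and the median difference was 0.37. Zbtb38 had levels of -0.15, -0.88 and -0.52 in Eomes-negative cells and 0.22, -0.14 and 0.55 in Eomes-positive cells. Its groups did not overlap, and the difference was 0.73 ± 0.268 (SE), with an adjusted p of 0.340 in limma and 0.0842 with the block. Zbtb4 differed by 0.37 and Zbtb33, which encodes Kaiso itself, by 0.22, and both overlapped between groups.

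The other 24 tested genes differed by -0.47 to 1.16, with a median of 0.27. There were 18 above 0 and 6 below, and none passed in either fit. Zbtb10 differed most, with levels of -2.30, -3.52 and -2.96 in Eomes-negative cells and -1.46, -1.79 and -2.06 in Eomes-positive cells. Its groups did not overlap, and the difference was 1.16 ± 0.348 (SE), with an adjusted p of 0.222 in limma and 0.0598 with the block. The other Zbtb10 probe gave 0.98. Zbtb39 differed by 0.68 (adjusted p of 0.117 in limma and 0.0661 with the block), Zbtb41 by 0.51, Zbtb22 by 0.45 and Zbtb42 by -0.47.

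Among the genes with the brightest probes of the remainder, differences were small except in Zbtb14. Zbtb14 differed by 0.44 (adjusted p of 0.433 in limma and 0.0815 with the block), and its second probe gave 0.67. Zbtb2, a factor of the p53 pathway, differed by 0.27, Zbtb9 by 0.23, Zbtb44 by 0.05 and Zbtb8os by -0.05. Zbtb44 (-0.48 and -0.54), Zbtb9 (only -0.0018) and Zbtb8os (0.21) also had probes of the opposite direction, as had Zbtb49 (-0.18 beside 0.19). These are 4 of the 12 genes with more than 1 probe measured on all 6 arrays, and in the other 8 the probes shared a sign. With median scaling 3 genes, Patz1, Zbtb44 and Zbtb49, had probes of opposite direction.

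Zbtb8b was the gene with the widest gap among those not tested. Its level was -7.34, -7.45 and -6.36 on the Eomes-negative arrays, none of them well above background, and -4.77, -4.53 and -5.66 on the Eomes-positive arrays, of which 2 were measured. No fold is given, since on the arrays of sort 3 it was not well above background in either group, and the difference has no test.

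Across the family the differences leaned towards Eomes-positive cells. The median of the 38 was 0.25, with quartiles of -0.0015 and 0.37, while the median of all 16361 genes was -0.01. Of the 38, 28 were above 0 and 10 below. Median scaling raised every difference by 0.098, those of all genes included, and 31 of the 38 were then above 0. The lean was present in each sort. The median was 0.12, 0.29 and 0.27 in sorts 1, 2 and 3, with 23, 31 and 28 of the 38 genes above 0, whereas 49.2%, 50.8% and 47.8% of all genes were above 0. The median depends on which arrays are used, and without the Eomes-negative array of sort 2 it was 0.08.

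In 18 genes (47.4%) all 3 sorts were above 0, against 25.2% of all genes, and in 3 (7.89%) all were below 0, against 27.1%. The other 17 differed in sign between sorts. In 11 genes (28.9%) the Eomes-positive arrays all lay above the Eomes-negative ones, against 8.53% of all genes, and in 2 (5.26%) they all lay below, against 9.69%. The 11 were Bcl6, Zbtb7a, Zbtb8a, Zbtb10, Zbtb14, Zbtb20, Zbtb22, Zbtb38, Zbtb39, Zbtb40 and Zbtb41, and the 2 were Patz1 and Zbtb25. The genes were chosen by name with earlier results of these data known, and no test of the family as a set was made.

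**Figure D2:**
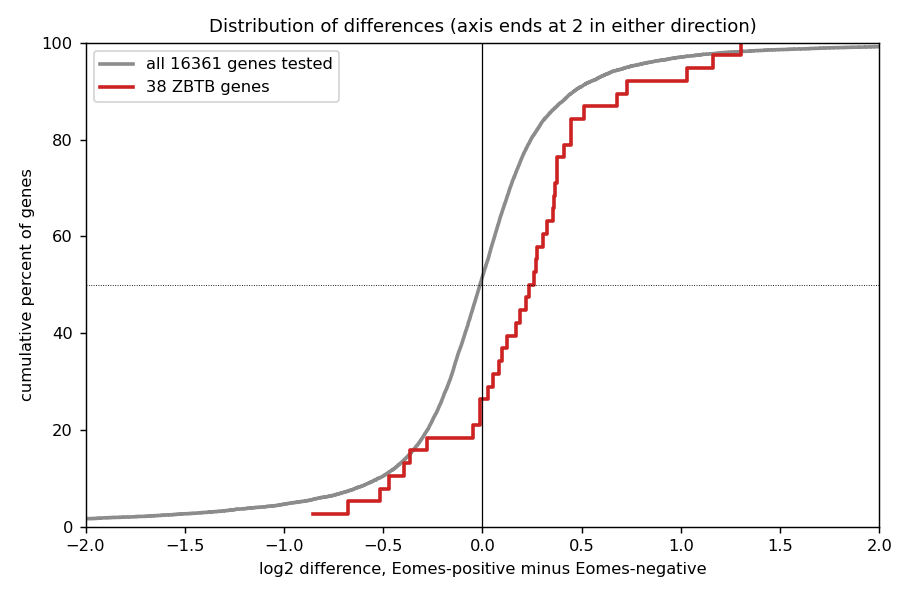
Cumulative percent of genes against the difference between Eomes-positive and Eomes-negative cells (log2), for the 38 tested ZBTB genes (red) and all 16361 genes tested (grey). The red curve crosses 50% at 0.25 and the grey curve at -0.01, while 3 ZBTB genes (7.89%) and 7.64% of all genes differ by more than 1 in either direction.

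Without regard to sign, the median difference was 0.36 for the 38 genes against 0.20 for all genes. Only Bcl6, Zbtb10 and Zbtb20 differed by more than 1 on the log2 scale, 7.89% of the 38 against 7.64% of all genes, and 29 (76.3%) differed by less than 0.5, against 80.5% of all genes. Of the 35 genes that did not pass with the sort as a block, 27 had a 95% interval inside -1 to 1, so that a change of more than 2-fold lies outside it. The intervals of the other 8 reached further. With the block 6 genes had an adjusted p between 0.05 and 0.1, of which Zbtb10, Zbtb14, Zbtb38 and Zbtb39 were higher and Zbtb7b and Zbtb25 lower.

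Probes of 6 pairs of these genes lie within 100 kb of each other (positions in mm9), and in 3 pairs both genes were tested. The Zbtb25 and Zbtb1 probes lie 39.0 kb apart on chromosome 12, and the differences were -0.36 and 0.08. The Zbtb34 and Zbtb43 probes lie 46.8 kb apart on chromosome 2, with -0.28 and 0.31. The Zbtb8os and Zbtb8a probes lie 6.94 kb apart on chromosome 4, with -0.05 and 0.32. None of these genes passed the test, and the signs of Zbtb1 and Zbtb8os changed under some of the alternatives (Zbtb8os to 0.05 with median scaling, Zbtb1 to -0.22 with the mean of all its probes).

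BTB domain factors that carry other names were taken as a second list, of which 8 were on the array under those names, all 8 tested. Hic1, a repressor silenced by methylation in tumours, rose by 2.33 ± 0.132 (SE), with an adjusted p of 0.00189 in limma. Its level was 2.77 ± 0.0535 (SD, n = 3) in Eomes-positive and 0.44 ± 0.103 (SD, n = 3) in Eomes-negative cells, and the sorts gave 2.36, 2.37 and 2.28. Gzf1 rose by 0.62 with the block only (adjusted p of 0.276 in limma, 0.0398 with the block). The paralogue Hic2 differed by -0.07, and the median of the 8 was 0.19.

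Of 22 tested corepressors and cullin partners, through which BTB factors act, none passed without the block. With it 1 (4.55%) fell, against 4.33% of all genes, and none rose. This was Mta3, which fell by 0.77 on the log2 scale (adjusted p of 0.234 in limma, 0.0479 with the block). Mta3 is the NuRD subunit known as a partner of BCL6 in B cells. The median of the 22 was 0.01. The histone deacetylase Hdac1 differed by 0.17 and the scaffold Sin3b by -0.20. The groups did not overlap in 2 of the 22 with Eomes-positive cells higher and in 2 with them lower, where all genes gave 8.53% and 9.69%. The 2 higher were Cul3 (0.48, adjusted p of 0.369 in limma and 0.142 with the block) and the histone deacetylase Hdac4 (0.58, adjusted p of 0.243 and 0.127). The 2 lower were Mta3 and the histone deacetylase Hdac5 (-0.19, adjusted p of 0.762 and 0.323).

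Genes known to act with or against Bcl6 moved in both directions. Of 26 genes in this circuit 24 were tested. Without the block 2 rose and 3 fell (8.33% and 12.5%, against 1.2% and 1.56% of all genes), and with it 4 rose (16.7%, against 3.67% of all genes) and 10 fell (41.7%, against 4.33%). The median was -0.26. Many of these genes were known from earlier results on these samples, so the counts are no independent evidence of a direction. Cxcr5, the follicular homing receptor, rose by 4.18 ± 0.278 (SE), with an adjusted p of 0.00271 in limma. Its level was 2.06 ± 0.0927 (SD, n = 3) in Eomes-positive and -2.12 ± 0.515 (SD, n = 3) in Eomes-negative cells. Sh2d1a, the adaptor SAP needed by follicular helper cells, rose by 1.45 ± 0.166 (adjusted p of 0.0140).

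The 3 genes of the list that fell without the block were Maf, Socs2 and Icos. Maf, a factor of follicular helper and type 17 cells, fell by 2.93 (adjusted p of 0.00782 in limma), and its level was -0.33 ± 0.498 (SD, n = 3) in Eomes-positive and 2.60 ± 0.156 (SD, n = 3) in Eomes-negative cells. Icos, the costimulatory receptor of follicular helper cells, fell by 1.49 (adjusted p of 0.0320), and Socs2, an inhibitor of cytokine signalling, by 2.60 (adjusted p of 0.0308). The cytokine Il21 was not well above background on any array.

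Prdm1 encodes Blimp-1, the antagonist of Bcl6. It was lower in Eomes-positive cells in every sort (-1.33, -1.23 and -0.89), and its levels were -2.44 ± 0.406 (SD, n = 3) and -1.29 ± 0.203 (SD, n = 3). The difference of -1.15 ± 0.248 (SE) passed with the block (adjusted p of 0.0208) and not without it (0.0930). Pdcd1, the inhibitory receptor PD-1, and Gpr183, the receptor that guides B and T cells to the outer follicle, rose with the block only, by 0.97 and 1.12. Klf2, S1pr1 and Ccr7, which direct recirculation through lymphoid organs, fell with the block only, by 0.65, 0.87 and 1.01 on the log2 scale, as did Lef1, Il6ra and Irf4, by 1.04, 1.75 and 1.53.

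**Figure D3:**
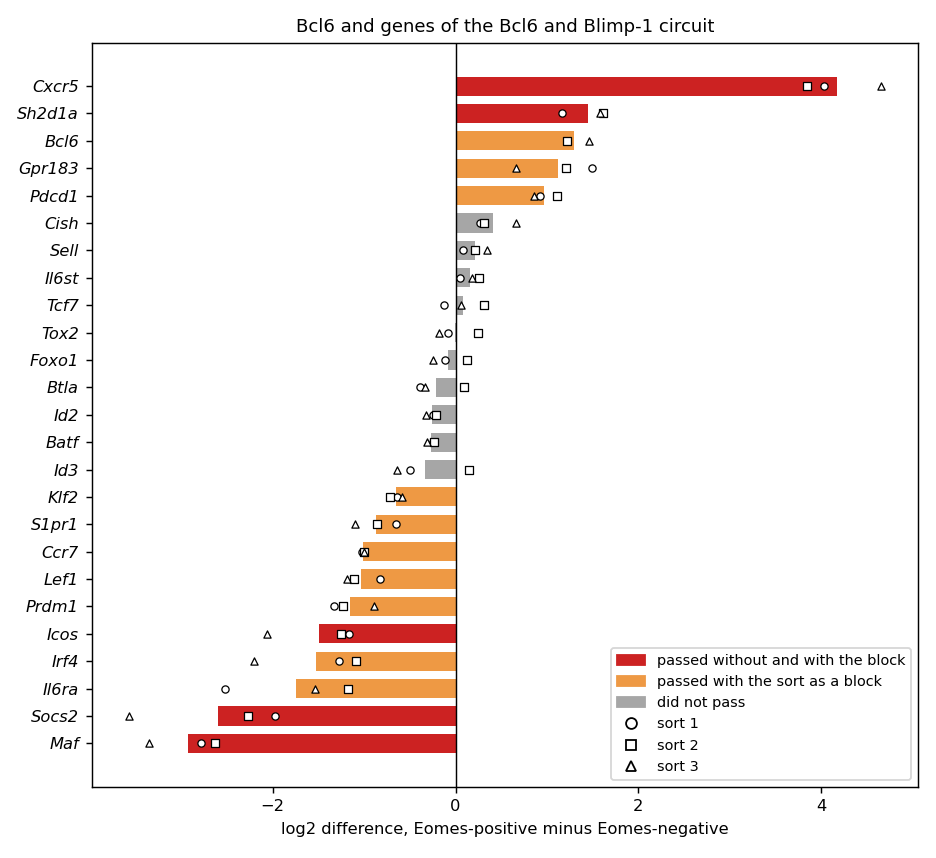
Difference between Eomes-positive and Eomes-negative cells (log2) for Bcl6 and the 24 tested genes of the Bcl6 and Blimp-1 circuit. Bars are means over the 3 sorts and symbols are the sorts. Cxcr5 (4.18) and Sh2d1a (1.45) are higher and Maf (-2.93), Socs2 (-2.60) and Icos (-1.49) lower in both fits, while Bcl6 (1.30) and Prdm1 (-1.15) pass only with the sort as a block.

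Genes around ThPOK and the choice between CD4 and CD8 were tested as well, 16 in number. Without the block 1 rose and 1 fell (6.25% each, against 1.2% and 1.56% of all genes). With it 2 rose (12.5%, against 3.67%) and 3 fell (18.8%, against 4.33%), and the median was -0.02. These genes too were listed with earlier results known. Myb, a factor upstream of the CD4 lineage programme, rose by 2.03 ± 0.336 (SE, adjusted p of 0.0427 in limma). Tox, also needed for the CD4 lineage, rose by 0.75 with the block only (adjusted p of 0.0243). Cd8b1 fell by 2.86 (adjusted p of 0.0194), and Lef1 and Socs1 fell with the block only, by 1.04 and 0.85 on the log2 scale. Cells bearing CD8β protein had been depleted from both groups, so Cd8b1 was among the transcripts the purification bears on. Runx3 and Gata3 differed by 0.33 and -0.17 and did not pass.

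Markers of other cells moved with the groups in some lists. Of 7 NK and innate lymphocyte markers 4 passed higher in Eomes-positive cells (57.1%, against 1.2% of all genes), namely Eomes, Klrb1c, Klre1 and Klri2. Eomes defined the sort, so its pass was fixed in advance. It also enters the mean levels of the list, 3.13 to 3.69 against 0.43 to 2.07. Ncr1 (1.70, adjusted p of 0.184 in limma), Tyrobp (0.70, 0.944) and Fcer1g (0.18, 0.990) did not pass, and Fcer1g was -0.48 in sort 2. The 9 macrophage markers tested had a median difference of -1.09, and none passed. Their median was -2.90 and -1.57 in sorts 1 and 2 but 1.03 in sort 3, where all 9 were higher in Eomes-positive cells. The mean level was -2.26 to 1.46 on Eomes-positive and -2.10 to 2.84 on Eomes-negative arrays. Of the 9 γδ T cell genes on the array only Tcrg-V6 passed, lower in Eomes-positive cells (a difference of -4.02). The 4 αβ T cell markers tested had a median difference of -0.41, and only Cd8b1 passed, as lower. Their mean level was -0.70 to -0.22 on Eomes-positive and 0.05 to 0.95 on Eomes-negative arrays. Cd4 differed by -0.39, Tcrb-J by -0.43 and Tcra by 0.18. The part of these lists in the ZBTB differences was not tested.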

How the data were processed

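RNA was measured on 6 one-colour Agilent arrays. Per the labels' protocols, RNA was amplified once and labelled with an Alexa Fluor dye. Per the file headers, the intensity of each spot was made with Agilent Feature Extraction 10.7.3.1, and other columns deposited there are flags for signal, saturation and outliers. A table of scaled intensity values that the authors deposited served as an alternative.

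Of 162570 spots per array, 4854 controls were left out, which left 39429 probes with 4 spots each. Spots were averaged as log2 intensity without outliers, the array's 75th percentile was subtracted, and 1 probe stood for each gene name. Genes measured on at least 3 arrays were tested in R 4.3.3 with limma 3.58.1 (group only, Benjamini-Hochberg, 0.05), which was tested on simulated data. Scans of 3 arrays per group limit the precision.

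Sort numbers pair the samples: deviations from group means correlated at 0.81, 0.82 and 0.81 within sorts, and the labels call the sorts independent. Between sorts they correlated at -0.57 to -0.26. Deviations from a group mean cancel out within the group, so these negative values follow from the positive ones and add nothing. Because of the correlations within sorts, the fit with the sort as a block is given beside the other. Arrays correlated at 0.92 to 0.97, and none were identical. Probe positions are mm9, names are the array's, and RefSeq gave 40 of the 42 genes the same name. The place of probes in exons or UTRs is not given.

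The genes, lists and tests were chosen with earlier results of these data known. Per-array values are given for ZBTB genes that passed in either fit and for 12 with lymphocyte roles. Other ZBTB genes are given as examples by largest difference (up to 6) and brightest probe (up to 6). From other lists the genes that passed, or else the brightest, are named. Values outside this rule (Zbtb8b, Zbtb49, neighbours and a few genes of the other lists) were chosen after they were seen. Background correction, scaling, the filter on dim genes, the choice of probe, the moderation, the block and left-out arrays were varied. Plots used Python 3.11.15 and matplotlib 3.10.9.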

Additional observations from a re-analysis of the deposited data

How the results depend on the processing

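Without the sort as a block, 0 ZBTB genes were called in each of the processing alternatives and array omissions, except 1 (Bcl6) with the slide as a block and 2 higher and 1 lower with the replicate block (paired by sort). The median difference moved from 0.25 to 0.14 with normexp background correction and to 0.34 with median scaling, and ranged from 0.0805 to 0.344 with arrays left out. Median scaling shifted all genes alike, and the ZBTB median stayed 0.26 above that of all genes.

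Alternatives to the fit with the replicate block were chosen after seeing the data. Higher and lower ZBTB calls numbered 5 and 2 with normexp, 4 and 0 with median scaling, 2 and 0 with quantile normalization or the deposited table, 1 and 0 with no filter on dim genes, 5 and 2 with genes measured on all 6 arrays, and 7 and 3 with trend and robust moderation. Leaving out a sort gave 0 higher and 0 to 1 lower, the 1 being Zbtb32, which was measured on 1 Eomes-positive array. Bcl6 passed in all of these except when a sort was left out. Over all 16361 genes, the fit with the block called 601 higher and 708 lower. The counts were 852 and 1061 with normexp, 788 and 578 with median scaling, and 605 and 612 with quantile normalization. With the authors' deposited values they were 579 and 687. They were 373 and 474 of 30199 with no filter, and 764 and 783 of 13747 measured on all 6 arrays. Trend and robust moderation gave 1311 and 1497. Each alternative with more than 2 higher ZBTB calls also called more than 601 genes higher. Without the block, median scaling gave 170 and 220, where the fit as reported gave 197 and 256. Leaving out single arrays or sorts, also without the block, left 0 to 101 higher and 0 to 179 lower over all genes.

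The Zbtb1 difference of 0.08 turned to -0.22 with the mean of all probes in both fits. It ranged from -0.15 to 0.35 with arrays left out, and was -0.12 and -0.15 without the Eomes-positive array of sort 1 or the Eomes-negative array of sort 3. The cause of these changes was not tested. Signals near background limit Zbtb32, Zbtb37, Zbtb46, Zbtb6 and Zbtb8b, and sort 3 was dimmer.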
